A study of Mus musculus with 10 samples.

Results

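Mitochondrial ribosomal protein genes were examined in bulk RNA sequencing of cells sorted from MC38 tumours of mice. The genes were all those whose symbol is Mrpl or Mrps followed by a number and, in some, a letter, with at least 1 TPM in at least 5 of the 10 libraries (TPM is transcript abundance scaled for length and to a fixed total of 1000000 per library). They numbered 78 of 55487 annotated genes, 49 Mrpl and 29 Mrps, and all 78 symbols of this form passed the TPM threshold. The series concerned phosphorylation of Ser452 in Pep, a tyrosine phosphatase encoded by Ptpn22, and its role in CD8+ T cells within tumours. MC38 cells, a mouse colon carcinoma line, were injected at 8 weeks of age into 5 wild-type mice (WT) and 5 whose Ptpn22 carries the serine to alanine change labelled S452A, and the tumours were digested with collagenase after 18 days. The change is spelled S425A in the design text but S452A in the labels, which are followed here. All mice carried MC38 tumours, no group without a tumour was analysed here, and no strain, sex or zygosity is given in the sources used here.

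All 10 libraries are labelled as tumour-infiltrating CD8+ T cells, but the transcripts did not match this label. The 8 T cell markers used were the 3 Cd3 chains, the T cell receptor constant genes, Cd8a and Cd8b1. Summed over them, the libraries held 12.1 to 126 TPM in WT mice and 15.0 to 135 TPM in S452A. Of the 8, only Trbc1 was at 0 in any library, in WT 2. The 8 macrophage markers, among them C1qa, Csf1r and Lyz2, were at 0 in no library. They summed to 16490 to 23050 TPM in WT mice and 17340 to 22930 TPM in S452A. The 8 fibroblast markers summed to 164 to 323 TPM in WT mice and 73.9 to 226 TPM in S452A mice. All levels below are therefore those of the sorted material as a whole. In such bulk samples, fewer cells of a type and less RNA per cell cannot be told apart.

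Mitochondria have their own ribosome, which translates the 13 proteins encoded by mitochondrial DNA, all of them subunits of the oxidative phosphorylation complexes. Its 2 rRNAs come from mitochondrial DNA, whereas all of its proteins are encoded in the nucleus, made in the cytosol and imported. Proteins of the large subunit, which holds the peptidyl transferase centre and the exit tunnel, are named Mrpl, and those of the small subunit, which reads the mRNA, are named Mrps. Some descend from bacterial ribosomal proteins and others were added in mitochondria. A few symbols mislead: the products of Mrps30 and Mrps18a sit in the large subunit, and that of Mrps36 belongs to the 2-oxoglutarate dehydrogenase complex and is not in the ribosome structure. By structure the genes divided into 51 of the large subunit (30 with a bacterial homologue and 21 specific to mitochondria), 26 of the small subunit (16 and 10) and Mrps36.

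Most of the genes were expressed at moderate levels. The median gene had a mean of 37.9 TPM over the 10 libraries, against 12.1 TPM for the median of all 13930 tested genes, 102 TPM for 87 nuclear-encoded oxidative phosphorylation subunits and 569 TPM for 85 cytosolic ribosomal proteins. Of the 78 genes, 72 stood above the median tested gene, 49 had a mean of 20 to 60 TPM, and 8 reached 100 TPM.

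**Figure D1:**
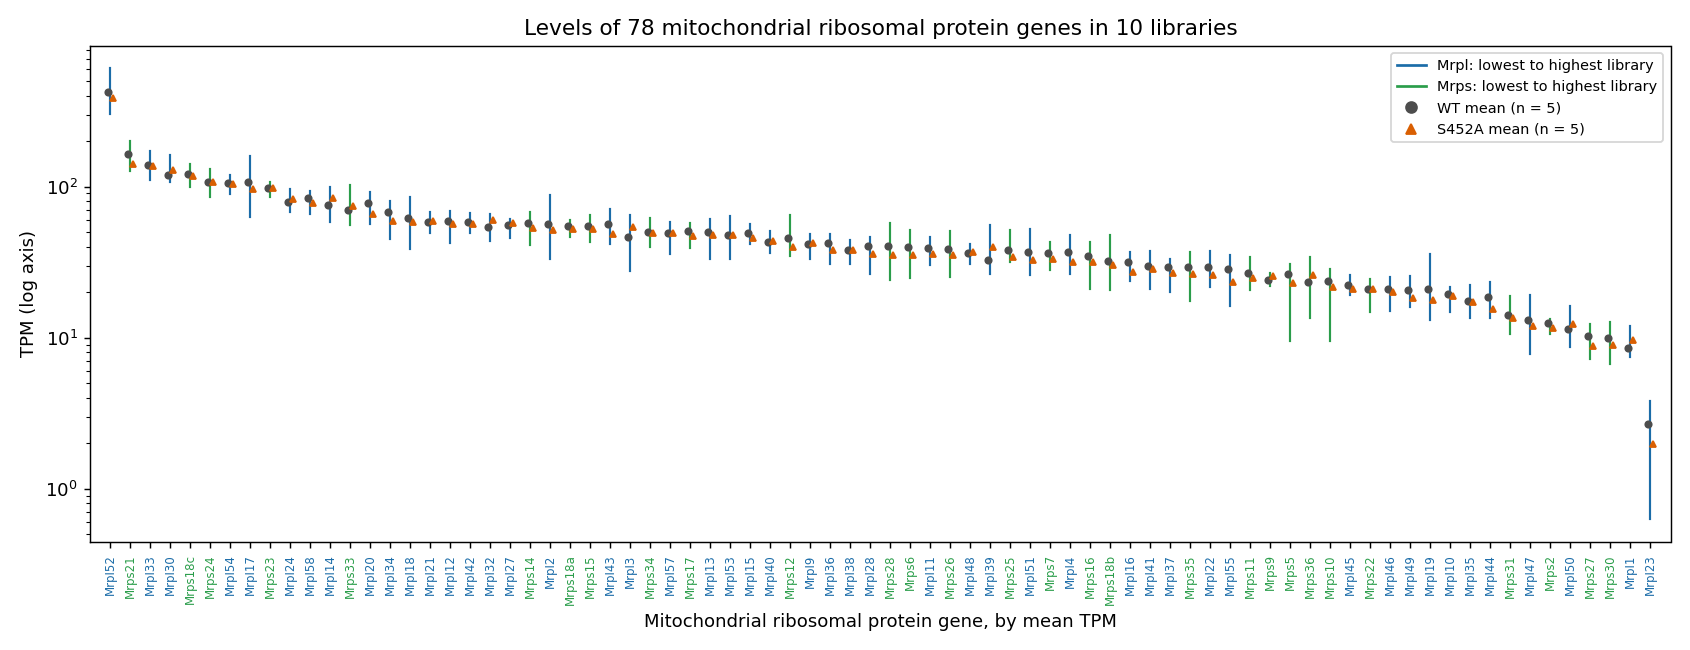
Level of each of the 78 genes in TPM on a log axis, ordered by the mean over 10 libraries. Lines run from the lowest to the highest library (blue Mrpl, green Mrps), circles are WT means and triangles S452A means (n = 5 each); Mrpl52 stands above all others, Mrpl23 below, and the genotype means of most genes lie close together.

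Mrpl52, a mitochondria-specific protein of the large subunit (chromosome 14, 54426909 to 54429756, GRCm38), had the highest level. Its TPM was 508, 370, 409, 350 and 471 in WT mice 1 to 5 and 307, 605, 310, 304 and 393 in S452A mice 1 to 5. The range of S452A enclosed that of WT, and S452A 2 was the highest library. Alone it made up 15.3% of the summed TPM of the Mrpl genes. Mrps21, the homologue of bacterial S21 (chromosome 3, 95862634 to 95871519), followed. Its TPM was 201, 127, 176, 142 and 175 in WT mice and 140, 141, 158, 129 and 139 in S452A. The WT mice were spread more widely and the groups overlapped. Mrpl33, the homologue of bacterial L33, Mrpl30, that of L30, and Mrps18c, that of S18, had means of 138, 124 and 119 TPM. At the low end were Mrpl50 (11.8 TPM), a mitochondria-specific large subunit protein, Mrps27 (9.50 TPM), a pentatricopeptide repeat protein of the small subunit, Mrps30 (9.43 TPM), Mrpl1 (9.13 TPM), the homologue of the protein of the bacterial L1 stalk, and Mrpl23 (2.32 TPM), whose bacterial homologue lines the end of the exit tunnel.

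Shorter genes stood higher. Across the 78 genes the Spearman correlation of mean TPM with coding length was -0.50 (-0.41 in Mrpl, -0.67 in Mrps). With the length of the whole transcript it was -0.38 (-0.38 in Mrpl, -0.39 in Mrps). Lengths are those of the annotated transcript with the longest coding sequence of each gene, which need not be the form expressed here. The 10 highest had a median coding length of 454.5 nt and the 10 lowest 936 nt. TPM is already scaled for length. Genes are not independent replicates, so the correlation is a description across genes of these libraries.

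The large subunit was not far above the small. The median Mrpl gene had 41.9 TPM and the median Mrps gene 36.3 TPM, taking each gene's mean over the 10 libraries. Within libraries, the ratio of the median Mrpl level to the median Mrps level was 1.22, 1.10, 1.12, 1.22 and 1.21 in WT mice and 1.33, 1.17, 1.14, 1.14 and 1.13 in S452A. This ratio of medians was above 1 in all 10 libraries, with S452A 1 apart from the other S452A mice. The mean ratio was 1.17 ± 0.06 in WT mice and 1.18 ± 0.09 in S452A mice (SD, n = 5 each). With the genes assigned by structure and Mrps36 left out it was 1.14 ± 0.04 and 1.16 ± 0.09 (SD, n = 5 each). The ratio of mean levels, a different measure, averaged 1.19 over the 10 libraries with Mrpl52 and 1.03 without it. Without Mrpl52 it was below 1 in WT 2 (0.964) and WT 3 (0.995).

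By class, the median of gene means was 48.1 TPM for large subunit proteins with a bacterial homologue, 36.5 TPM for mitochondria-specific ones, 37.7 TPM for small subunit proteins with a bacterial homologue and 33.7 TPM for mitochondria-specific ones. Members of a single structure were not at one level. In the stalk, which recruits translation factors, Mrpl10 had 19.2 TPM, Mrpl11 37.4 TPM and Mrpl12, the stalk protein also known to bind the mitochondrial RNA polymerase, 57.9 TPM. Mrpl10 ranged from 14.8 to 21.8 TPM in WT mice and from 17.5 to 20.3 TPM in S452A, and Mrpl12 from 43.7 to 68.5 TPM and from 42.3 to 67.8 TPM, so that the ranges of these 2 genes did not overlap. The exit tunnel genes were listed from 2.32 TPM (Mrpl23) to 81.2 TPM (Mrpl24), with a median of 19.3 TPM. This low end and median are uncertain, since Mrpl23 and Mrpl22 have near-identical copies. With the copy added, Mrpl23 had a mean of 102 TPM and Mrpl22 of 40.8 TPM. The 7 genes of the central protuberance had a median of 43.5 TPM and ran from 20.5 TPM (Mrpl46) to 80.9 TPM (Mrpl58, a peptidyl-tRNA hydrolase built into the ribosome).

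The 3 paralogues of bacterial S18 occupy different places in the mitochondrial ribosome and were listed at different levels. Mrps18c, at the site of bacterial S18, had 121 ± 14.5 TPM in WT mice and 117 ± 13.95 in S452A. Mrps18a, in the large subunit, had 55.0 ± 3.22 and 52.7 ± 5.50, and Mrps18b, elsewhere in the small subunit, had 32.1 ± 9.24 and 30.3 ± 6.02 (SD, n = 5 each). Mrps18c was above the other two in every library. Mrps18a varied little between libraries, from 46.2 to 59.8 TPM, whereas Mrps18b ran from 20.7 TPM in S452A 3 to 47.6 TPM in WT 3. Mrps18b has a copy of 99.8% identity, Gm13552. Gene and copy summed to 51.1 ± 14.5 TPM in WT mice and 51.7 ± 8.20 in S452A mice (SD, n = 5 each). The listed gap between Mrps18a and Mrps18b depends on how reads were divided with that copy and is uncertain.

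Mrpl23 was lowest as listed, but it has a near-identical copy with a high level. Mrpl23 lies on chromosome 7 (142532686 to 142540747), and the annotation also lists Mrpl23-ps1, a near-identical pseudogene. Mrpl23 was listed at 2.63, 3.82, 3.32, 0.63 and 2.95 TPM in WT mice and 1.80, 0.89, 2.62, 1.21 and 3.31 TPM in S452A mice. It was the only one of the 78 genes below 1 TPM in any library. Mrpl23-ps1 had a mean of 100.1 TPM. The 2 share 421 of the 516 coding bases of Mrpl23 without a single difference, and a stretch of 60 of these (bases 259 to 318 of the Mrpl23 coding sequence) is shown to make plain that a read from here could come from either; below it, the pseudogene Gm5776 differs from the coding sequence of Mrps33 at 1 of 318 bases, G171A counted from the first coding base, marked by the capital in bases 141 to 200.
Mrpl23: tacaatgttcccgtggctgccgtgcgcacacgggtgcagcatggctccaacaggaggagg
Mrpl23-ps1: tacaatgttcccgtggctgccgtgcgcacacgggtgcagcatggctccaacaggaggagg
Mrps33: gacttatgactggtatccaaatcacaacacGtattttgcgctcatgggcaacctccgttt
Gm5776: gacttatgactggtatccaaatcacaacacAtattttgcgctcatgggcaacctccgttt

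Summed, Mrpl23 and Mrpl23-ps1 had 113, 99.8, 104, 105 and 90 TPM in WT mice and 106, 91.1, 97.6, 92.5 and 126 TPM in S452A mice. The sum was 102 ± 8.29 TPM in WT mice and 103 ± 14.3 in S452A mice (SD, n = 5 each), a level near that of Mrpl54 or Mrpl17. Mrpl23 itself took 2.25% of it. Near-identical copies with a mean above 1 TPM (95% identity or more along 200 nt or more, and along 0.8 or more of the shorter RNA) were found for 17 of the 78 genes. The gene itself was listed with 29.3% of the sum for Mrps36, 48.7% for Mrpl51, 56.5% for Mrps33 and 56.6% for Mrpl27, and with 95.8% for Mrps21. The levels of these 17 genes are uncertain, since the authors' estimation divided reads between near-identical sequences and the division cannot be checked from TPM.

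**Figure D2:**
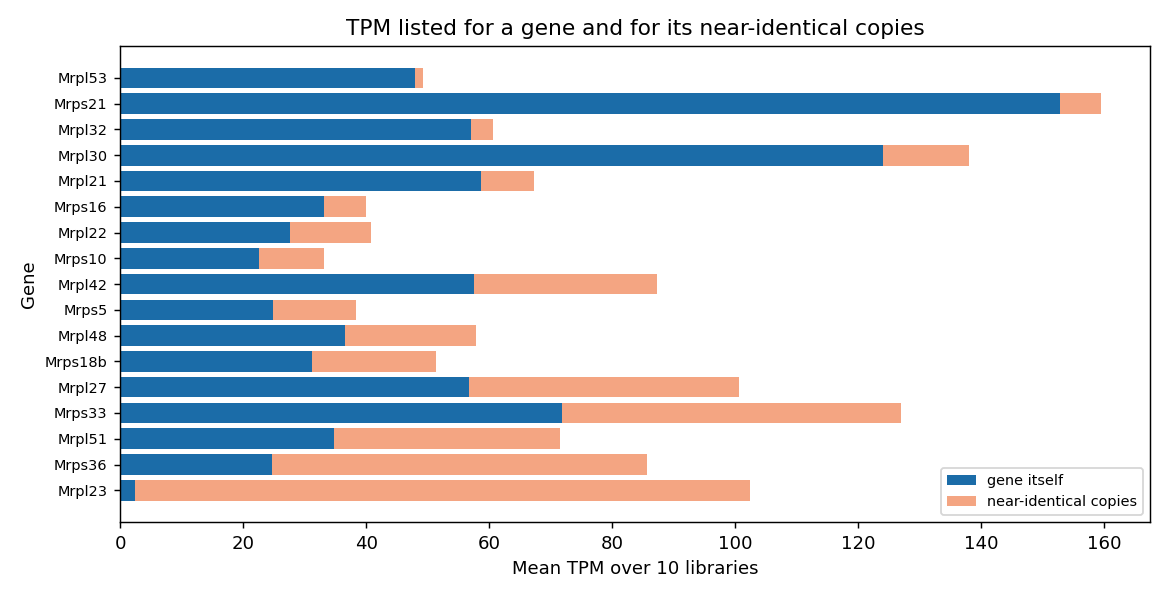
Mean TPM over 10 libraries listed for each of 17 genes (dark blue) and for its near-identical copies (orange). For Mrpl23 nearly all of the sum is listed under the copy, and for Mrps36, Mrpl51, Mrps33 and Mrpl27 a large part is.

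Summed over genes, the mitochondrial ribosomal proteins had 4600, 3607, 4180, 3832 and 4024 TPM in WT mice and 4006, 4248, 3458, 3534 and 4071 TPM in S452A mice. The lowest 2 libraries were S452A 3 and S452A 4 and the highest was WT 1, and the groups overlapped. The mean was 4049 ± 375 TPM in WT mice and 3864 ± 348 in S452A mice (SD, n = 5 each), which is 0.405% and 0.386% of all TPM. The Mrpl genes summed to 2692 ± 272 and 2586 ± 265 TPM and the Mrps genes to 1357 ± 108 and 1278 ± 92.2 TPM (SD, n = 5 each).

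**Figure D3:**
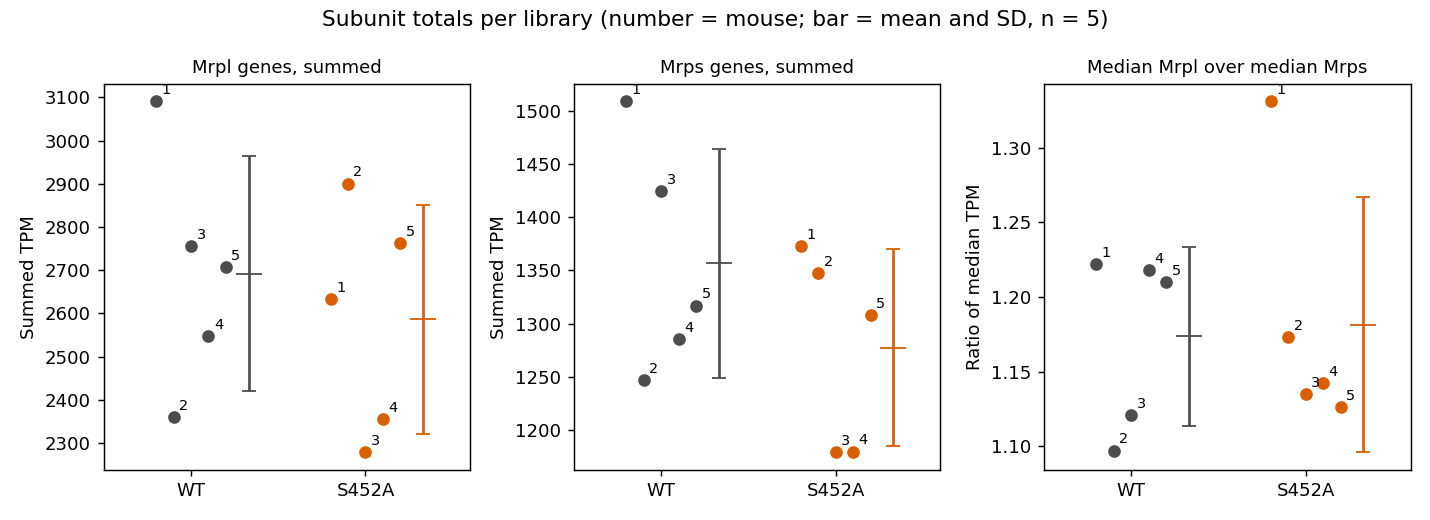
Summed TPM of the Mrpl genes, of the Mrps genes and the ratio of their medians, by library. Points are mice with their number, bars the mean and SD of 5 mice; the vertical axes do not start at 0, and the WT and S452A libraries overlap in all 3 panels.

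Libraries differed in common across many of these genes. Of the 78 genes, 26 had their lowest value in S452A 3, 17 in WT 2 and 12 in S452A 4, and 21 had their highest in WT 1 and 15 in WT 3. S452A 3 and S452A 4 were also the libraries with the lowest means of 10 proliferation genes, 4.697 and 5.004 on the log2(TPM + 1) scale, against 5.29 to 5.68 in the other 8. S452A 3 had the highest mean of the T cell markers (4.02) and the lowest of the fibroblast markers (2.68) on the same scale. Over all tested genes the mean on that scale was lowest in S452A 3 (3.864) and highest in WT 3 (3.998). S452A 4 (3.925) and WT 1 (3.903) lay between. How many of all tested genes were lowest or highest in each library was not counted. The part of these differences between libraries in the levels of the mitochondrial ribosomal proteins was not tested.

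No mitochondrial ribosomal protein gene passed the test for a difference between S452A and WT. In a limma fit over all 13930 tested genes on log2(TPM + 1), 0 of the 78 passed an adjusted p of 0.05 in either direction, and 0 had an unadjusted p under 0.05. The unadjusted count was 2 without WT 2, WT 5 or S452A 2, 3 without S452A 5, and 1 with near-identical copies summed, and it was 0 in the other alternatives. Over all genes, 0.00718% passed as higher and 0% as lower, 2.01% and 2.73% did so at the unadjusted level, and the groups did not overlap for 0.273% and 0.373%. The 2 genotypes overlapped for all 78. The smallest adjusted p in limma among them was 0.952. The 95% intervals of all 78 differences lay within a 2-fold change of TPM + 1 in either direction. So did those of 86.9% of all tested genes, and 66 of the 78 lay within 1.5-fold. For Mrpl23, listed at a mean of 2.32 TPM, this leaves room for a larger change in TPM itself. A p that misses the threshold does not show that the levels are equal.

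The 5 genes of smallest unadjusted p with a lower mean in S452A were Mrpl16, Mrpl44, Mrps21, Mrpl20 and Mrpl55. Mrpl16, the homologue of bacterial L16, which lies close to the tRNA sites, had 36.8, 31.2, 30.9, 27.4 and 32.1 TPM in WT mice and 26.6, 24.6, 23.6, 26.4 and 33.9 TPM in S452A mice. In S452A, 4 of 5 mice were below every WT mouse, and mouse 5 was above 4 of the 5 WT mice. The difference was -0.23 ± 0.13 (SE, log2 scale, n = 5 each), with an adjusted p of 0.952 in limma. Mrpl44, a large subunit protein with a ribonuclease III fold, differed by -0.23 and had 19.6, 16.6, 23.3, 20.3 and 13.8 TPM in WT mice and 14.8, 17.6, 13.5, 15.5 and 16.3 TPM in S452A mice. Here 3 WT mice lay above all S452A mice and WT 5 was among the lowest. The other three differed by -0.20 (Mrps21), -0.21 (Mrpl20, the homologue of bacterial L20) and -0.29 (Mrpl55, that of L31).

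The 5 of smallest p with a higher mean in S452A were Mrpl32, Mrpl3, Mrpl14, Mrpl39 and Mrpl1. Mrpl32, the homologue of bacterial L32, which is cut by the m-AAA protease before assembly, had 62.1, 43.4, 52.3, 59.8 and 52.3 TPM in WT mice and 64.7, 56.5, 65.8, 53.3 and 61.0 TPM in S452A mice. Its difference was 0.16 ± 0.12 (SE, log2 scale, n = 5 each) with an adjusted p of 0.952 in limma, and 2 S452A mice exceeded every WT mouse. Mrpl3, the homologue of bacterial L3, had 27.4, 58.3, 58.5, 38.4 and 48.5 TPM in WT mice and 50.4, 54.2, 46.4, 64.5 and 53.3 TPM in S452A mice. Its difference of 0.26 came with WT 1 and WT 4 low and the other 3 WT mice within the range of S452A. Mrpl39, a mitochondria-specific large subunit protein related to threonyl-tRNA synthetase, had 35.3, 33.5, 28.4, 36.6 and 30.5 TPM in WT mice and 35.9, 26.5, 51.0, 55.9 and 29.6 TPM in S452A mice. S452A 3 and S452A 4 were high and the other 3 S452A mice were at 26.5 to 35.9 TPM. Mrpl14, the homologue of bacterial L14 at the subunit interface, and Mrpl1 differed by 0.16 and 0.14.

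As a group the genes leaned slightly downward in S452A. The difference was below 0 for 58 of 78 (34 of 49 Mrpl and 24 of 29 Mrps), against 53.4% of all tested genes. The median difference was -0.09, with -0.08 for Mrpl and -0.11 for Mrps, against -0.02 over all tested genes, on the log2(TPM + 1) scale. Cytosolic ribosomal proteins had a median of -0.04 with 65 of 85 below 0, and oxidative phosphorylation subunits -0.05 with 58 of 87. The size of the lean moved with single libraries. With each library left out in turn, 46 to 65 of 78 were below 0, with medians of -0.13 to -0.04. The count was lowest without S452A 3 (46), S452A 4 (49) and WT 1 (50), and highest without S452A 1 (65), S452A 2 (64) and WT 2 (63). Genes that share libraries and a fixed TPM total are not independent, so these counts are a description.

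**Figure D4:**
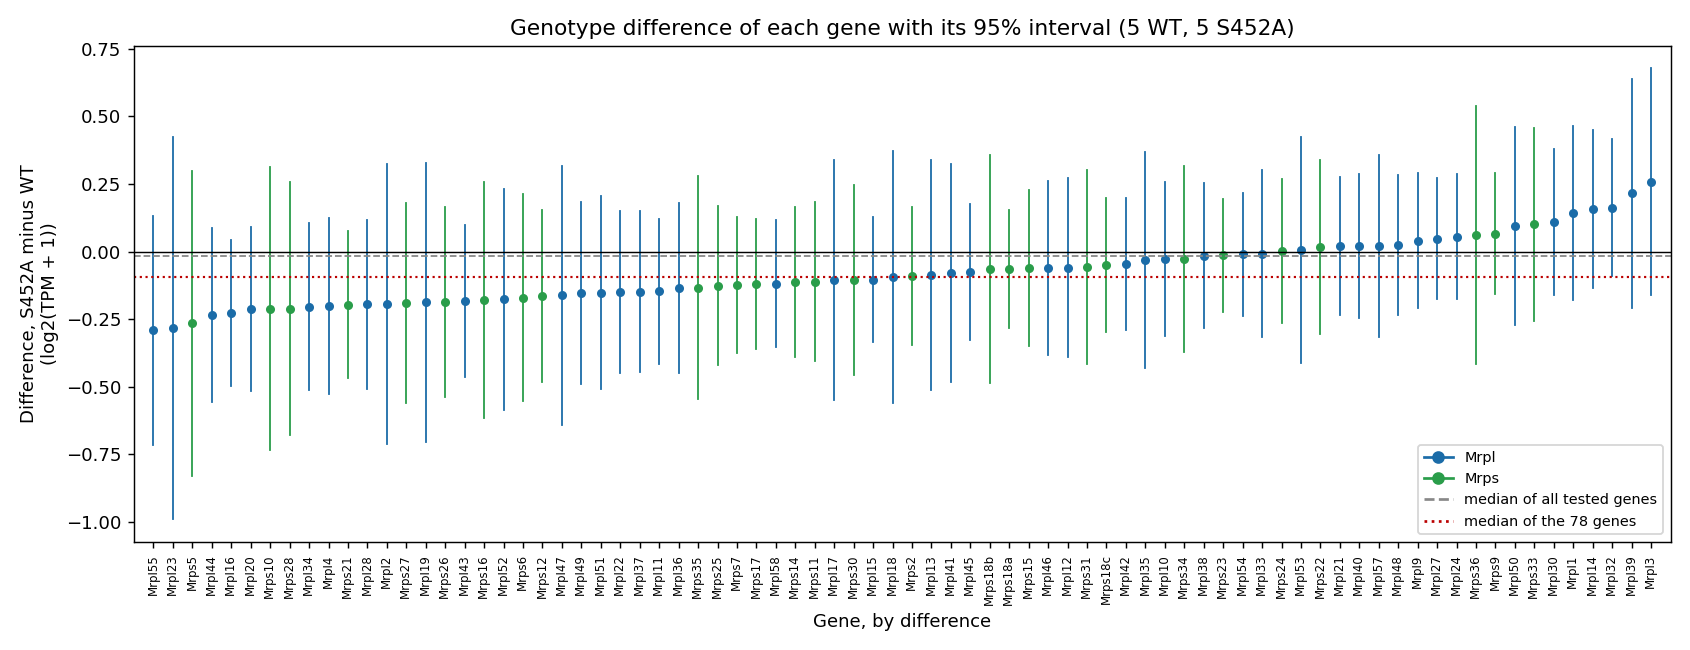
Difference of each of the 78 genes between S452A and WT on the log2(TPM + 1) scale, with its 95% interval from limma, in order of size (blue Mrpl, green Mrps; n = 5 mice each). All intervals include 0, and the median of the genes (dotted, -0.09) lies below that of all tested genes (dashed, -0.02).

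Genes that work with the mitochondrial ribosome showed no call either. In lists chosen for known roles, 0 genes passed the adjusted threshold in either direction. For the counts below 0 by list, the share of all tested genes was 53.4%. Ribosome proteins without an Mrp symbol (Dap3, Ptcd3, Aurkaip1, Chchd1 and Gadd45gip1) had a median difference of -0.16, with 4 of 5 below 0. The smallest p belonged to Aurkaip1 (113 ± 16.8 TPM in WT mice and 98.9 ± 9.61 in S452A) and Chchd1 (95.9 ± 13.6 and 85.3 ± 16.2). Among 26 tested of 27 assembly and rRNA modification factors the median was -0.07, with 18 below 0. Mettl17, an assembly factor of the small subunit, had 8.02 ± 1.42 TPM in WT mice and 13.8 ± 4.43 in S452A mice (SD, n = 5 each), a difference of 0.68 ± 0.21 (SE, log2 scale, n = 5 each). Its groups did not overlap, but S452A 4 (9.89 TPM) lay close to WT 2 (9.36 TPM). S452A lay wholly above WT for 0.273% of all tested genes, and 2.01% were higher at an unadjusted limma p under 0.05. The limma p of Mettl17 was 0.00624 before and 0.952 after adjustment over all tested genes. Fastkd2, an RNA-binding protein needed for the large rRNA, came next with 6.53 ± 1.26 and 10.6 ± 4.54 TPM (SD, n = 5 each).

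Among 14 tested of 15 translation factors the median was -0.04, with 9 below 0. Gfm2, the factor that separates the subunits after termination, had 17.8 ± 1.73 TPM in WT mice and 13.9 ± 2.27 in S452A mice (SD, n = 5 each), a difference of -0.34 with an adjusted p of 0.952 in limma, and Tsfm, the exchange factor of the elongation factor Tufm, differed by -0.28. For 19 tested of 20 aminoacyl-tRNA synthesis genes the median was -0.03, and Vars2, the synthetase for valine, differed by -0.32. For 6 tested of 7 transcription genes it was 0.01, with the smallest p for Mterf1a (-0.44) and Tfam (0.29), the packaging protein of mitochondrial DNA. For 8 tested of 9 regulators of mitochondrial genes it was -0.02, with the smallest p for Gabpa (0.13) and Myc (-0.13), both transcription factors. Nrf1 had 21.6 ± 2.56 and 21.5 ± 2.93 TPM (SD, n = 5 each), and the coactivator Ppargc1a was below the threshold for testing.

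The rRNAs of this ribosome, mt-Rnr1 of the small subunit and mt-Rnr2 of the large, had 3422 ± 587 and 2766 ± 551 TPM in WT mice and 2968 ± 615 and 2700 ± 711 in S452A mice (SD, n = 5 each). Their differences were -0.21 and -0.05. The protein-coding mitochondrial transcripts that the ribosome translates summed to 44646 ± 11228 TPM in WT mice and 32696 ± 7763 in S452A mice (SD, n = 5 each), with overlapping groups. All 13 were below 0, against 53.4% of all tested genes, with a median of -0.42. An unadjusted p under 0.05 in limma was found for 6 of 13, against 2.73% of all tested genes as lower. Genes that share libraries and a fixed TPM total are not independent, so these counts are a description. The smallest p belonged to mt-Atp6 (-0.88) and mt-Nd2 (-0.40), subunits of ATP synthase and complex I. The groups did not overlap for 1 of the 13, mt-Atp6, which had 3335 ± 562 TPM in WT mice and 1839 ± 478 in S452A mice (SD, n = 5 each), with an adjusted p of 0.847 in limma. Over all tested genes, S452A lay wholly below WT for 0.373%. The difference of mt-Atp8, also of ATP synthase, was -0.42 with overlapping groups. Within genotypes mt-Co3 ran from 51.5 TPM (WT 4) to 2662.5 TPM (WT 2) and from 85.3 TPM (S452A 3) to 1928 TPM (S452A 5). The 10 proliferation genes were all below 0 as well, with a median of -0.33. Of these, 4 of 10 had an unadjusted p under 0.05 in limma, against the same 2.73% of all tested genes. The smallest p belonged to Mcm3 (-0.37) and Rrm2 (-0.46), which act in DNA replication and nucleotide synthesis. Aurkb, a mitotic kinase, had the largest difference of the 10 (-0.66). It had 8.77 TPM in S452A 3 and 17.1 TPM in S452A 4, the libraries with the lowest means of the 10 genes. The other S452A mice had 24.7 to 29.6 TPM and WT mice 28.2 to 39.5 TPM.

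Mitochondrial ribosomal protein genes varied together across libraries, but loosely. The Pearson correlation of log2(TPM + 1) over the 10 libraries had a median of 0.25 over the 3003 pairs of genes, with quartiles of -0.01 and 0.46, and exceeded 0.5 in 20.1% of pairs. Over all pairs of tested genes the median was 0.01 and 9.95% exceeded 0.5. Cytosolic ribosomal proteins had a median of 0.65 and oxidative phosphorylation subunits 0.38. The subunits did not form separate blocks, with a median of 0.26 between Mrpl genes, 0.20 between Mrps genes and 0.25 between the 2 kinds. The median correlation of these genes with cytosolic ribosomal proteins, 0.36, was above that among themselves, and with oxidative phosphorylation subunits it was 0.30. Mean TPM of the cytosolic genes was far higher, and all pairs share the libraries, their unknown depth and the fixed TPM total, so the values are given without a test.

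**Figure D5:**
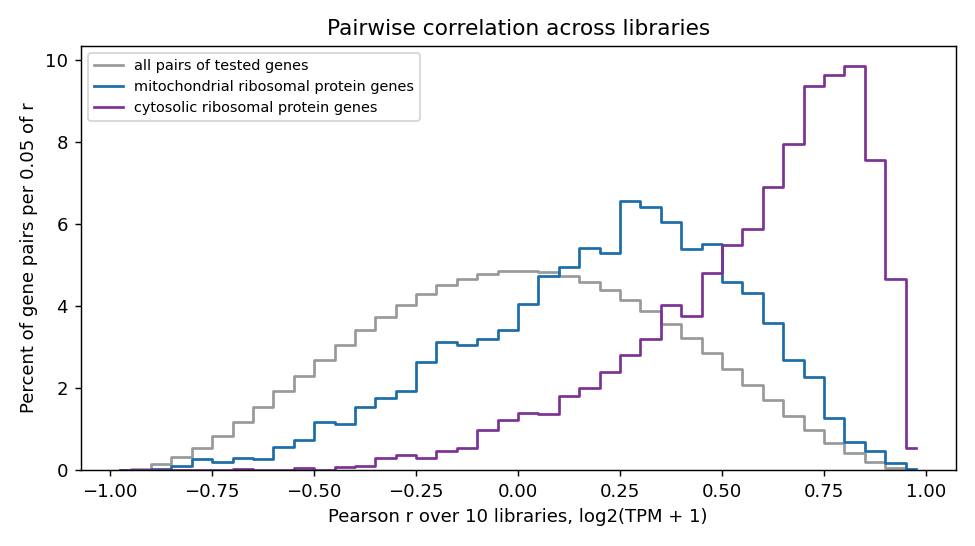
Distribution of the Pearson correlation over 10 libraries on the log2(TPM + 1) scale, as percent of gene pairs per bin of 0.05. Pairs of mitochondrial ribosomal protein genes (blue, median 0.25) lie between all pairs of tested genes (grey, median 0.01) and pairs of cytosolic ribosomal protein genes (purple, median 0.65).

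The genes with the highest median correlation to the others were Mrps28, the homologue of bacterial S1 (0.49), Mrpl13, that of L13 (0.48), and Mrpl18, that of L18 in the central protuberance (0.48). Mrps28 had 57.4, 31.6, 40.2, 34.7 and 37.5 TPM in WT mice and 45.6, 41.9, 24.0, 24.1 and 40.3 TPM in S452A mice. Mrpl13 had 59.6, 40.0, 55.7, 46.6 and 47.2 TPM in WT mice and 61.0, 53.9, 33.1, 33.2 and 59.1 TPM in S452A mice. Both were at their lowest in S452A 3 and S452A 4. The most alike pairs were Mrpl54 with Mrps28 (r = 0.95) and with Mrpl13 (0.95) and Mrpl13 with Mrps28 (0.94), which joins proteins of both subunits.

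At the other end, Mrpl39 had a median correlation of -0.40, Mrpl3 of -0.26 and Mrps18a of -0.16, and 5 genes in all had a median below 0. Mrpl39 was high in S452A 3 and S452A 4, where 26 and 12 of the 78 were at their lowest, and Mrpl3 was lowest in WT 1, where 21 of the 78 were at their highest. These 2 genes were not alike (r = 0.02). The lowest of all pairs was Mrpl30 with Mrps18a (-0.87). Among the stalk genes, Mrpl10 and Mrpl12 had r = 0.43, Mrpl11 and Mrpl12 0.32 and Mrpl10 and Mrpl11 0.21. Among the S18 paralogues, Mrps18c had r = 0.22 with Mrps18b and -0.52 with Mrps18a.

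Spread between libraries was typically below that of all tested genes but above that of the 2 related sets. The median SD of log2(TPM + 1) over the 10 libraries was 0.23, against 0.30 for all tested genes. It was 0.20 for oxidative phosphorylation subunits and 0.16 for cytosolic ribosomal proteins. These sets also differ in level. Among the 78 genes the SD ran from 0.10 in Mrps9, the homologue of bacterial S9, to 0.55 in Mrpl23. Mrpl23 was listed at only 0.63 to 3.82 TPM, and its spread depends on how reads were divided with its copy. With the copy added it lay between 90 and 126 TPM. Mrps9 lay between 21.9 and 27.0 TPM in all 10 libraries. Mrps5 and Mrps10, homologues of bacterial S5 and S10, were among the most variable, with S452A 3 far below the rest. Mrps5 had 9.54 TPM there and 21.3 to 30.8 TPM elsewhere, and Mrps10 had 9.56 TPM there and 19.6 to 28.5 TPM elsewhere. Both have a near-identical copy, and with the copy added S452A 3 was still the lowest library, at 18.5 and 17.9 TPM. Mrps36 was lowest in the same library, at 13.5 TPM.

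Many of the genes start back to back with a neighbour. In GENCODE annotation of GRCm38, 26 of 78 (33.3%) had a gene starting on the opposite strand within 1000 bp upstream or overlapping by at most 500 bp, against 9.52% of 21951 protein-coding genes. That background includes genes not expressed here, and no share was computed for the tested genes alone. Several neighbours act in mitochondria too. Mrps12 faces Sars2, the mitochondrial seryl-tRNA synthetase, Mrps27 faces Ptcd2, a mitochondrial RNA-binding protein, Mrpl36 faces Ndufs6, a complex I subunit, and Mrpl46 and Mrps11 face each other. The intergenic stretches of the first 2 are shown because they are the whole stretch between the starts of each pair; capitals mark a match to the SP1 motif GGGCGG or the ETS motif CCGGAAGT on either strand. The first is chr7:28741821-28741991 on the minus strand, so that it ends at the start of Mrps12, and the second is chr13:99344706-99344785 on the plus strand, which ends at the start of Mrps27 (GRCm38.p6).
Mrps12 and Sars2: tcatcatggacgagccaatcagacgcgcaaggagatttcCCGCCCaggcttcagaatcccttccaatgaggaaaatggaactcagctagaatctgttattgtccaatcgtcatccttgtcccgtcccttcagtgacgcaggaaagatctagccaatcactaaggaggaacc
Mrps27 and Ptcd2: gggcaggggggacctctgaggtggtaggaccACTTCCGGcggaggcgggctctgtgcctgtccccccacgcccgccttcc

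Levels of such neighbours often differed. Mrps12 had a mean of 42.6 TPM and Sars2 5.36 TPM, and over the 10 libraries r was -0.05. Mrps27 had 9.50 TPM and Ptcd2 14.1 TPM, with r = 0.48. Mrpl46 and Mrps11 had 20.5 and 25.8 TPM, with r = 0.00. Mrpl49 had 19.5 TPM and its neighbour Fau, which encodes a fusion of a ubiquitin-like protein with a cytosolic ribosomal protein, 898 TPM, with r = 0.44. Of the neighbours that were tested, the most alike was that of Mrpl51, Ncapd2, a condensin subunit, with r = 0.66, and the least alike that of Mrpl44, Wdfy1, with r = -0.53.

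Promoter windows of 250 bases before to 50 after the start (RefSeq, GRCm38.p6) were found for 69 of the 78 genes. They were searched on both strands for motifs of factors known to act on nuclear genes of mitochondria and for the TATA box, where a match is only a match of letters. A gene was counted if any of its windows held the motif. The NRF1 motif (GCGCA, any base, then GCGC) was in 13 of 69 (18.8%), against 11.7% of 9304 other tested genes and 5.19% of all 27025 genes with a window. The ETS motif CCGGAAGT, bound by GABPA, was in 12 (17.4%), against 9.59% and 4.31%. The YY1 motif (AAGATGG directly followed by CGG) was in 5 (7.25%), against 2.50% and 0.995%, and the SP1 motif GGGCGG in 34 (49.3%), against 68.3% and 38.2%. The TATA box motif TATAAA was in 5 (7.25%), against 8.85% and 15.7%. Genes with the NRF1 motif had a median of 49.5 TPM and those without 37.0 TPM, and for the ETS motif these were 51.3 and 37.4 TPM. Median correlation with the other genes was 0.27 with the NRF1 motif and 0.29 without, and 0.30 with the ETS motif and 0.27 without.

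The NRF1 match is shown in capitals, with 10 bases on each side, for the 7 genes named above for their level, genotype difference, covariation or place in the stalk that hold it. By the RefSeq starts, it lay between 125 bases before and 4 bases after the start. The GENCODE gene starts differ for some. Those of Mrpl39 (84735742), Mrpl32 (14613165) and Mrpl14 (45686322) lie upstream of the match, which is then inside the gene.
Mrps21 (chr3:95871586-95871615, minus strand): ggaaagtccaGCGCCTGCGCtcagcaccga
Mrpl44 (chr1:79775973-79776002, plus strand): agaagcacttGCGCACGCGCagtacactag
Mrpl12 (chr11:120484546-120484575, plus strand): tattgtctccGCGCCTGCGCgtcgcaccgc
Mrpl30 (chr1:37890384-37890413, plus strand): tgacgccgctGCGCCTGCGCtgtcttctat
Mrpl39 (chr16:84735350-84735379, minus strand): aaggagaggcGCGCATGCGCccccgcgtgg
Mrpl14 (chr17:45686343-45686372, plus strand): aacccctggcGCGCAGGCGCagcgtgcggg
Mrpl32 (chr13:14613105-14613134, minus strand): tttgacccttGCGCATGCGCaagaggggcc
The other 6 genes that hold it were Mrpl17, Mrpl45, Mrpl57, Mrpl9, Mrps26 and Mrps9.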

How the data were processed

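Libraries were directional, from 40 ng of RNA, per the labels' protocols. The submitters' processing notes name STAR 2.7.9a, RSEM 1.3.0 and the build GRCm38.p6. An annotation release is not given in the sources used here. Deposited by the authors were TPM values, which sum to 1000000 per library and keep no counts, so sequencing depth is unknown. Genotype came from the labels, which number separate mice.

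Genes reaching 1 TPM in 5 libraries or more were tested on log2(TPM + 1) with limma 3.58.1 in R 4.3.3 (moderated with a trend, 2-sided, Benjamini-Hochberg over 13930 genes, threshold 0.05), after the fit was tested on simulated data. This scale understates changes of low genes. Positions came from GENCODE M21 (GRCm38), promoters from RefSeq, and copies from blastn 2.17.0. Python 3.11.15, numpy 2.4.6, pandas 2.3.3 and biopython 1.88 served for the rest.

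The genes, lists and tests were chosen with earlier results of these data known. Named are the 5 highest and 5 lowest genes by level, the 5 of smallest p in each direction, the 3 highest and 3 lowest by median correlation, the stalk genes, the S18 paralogues, Mrps30 and Mrps36, and 2 genes per list by p, of which 1 is not reported here. Other names were chosen after their values were seen. Alternatives were other pseudocounts, filters and scalings, each library left out, the mouse number as a block, a T cell marker covariate and robust moderation. Summing copies, leaving Mrpl52 out of the ratio and leaving out genes with copies were added after the data were seen.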

Additional observations from a re-analysis of the deposited data

Results flagged for a closer look

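Single libraries were looked for that stood apart from the other 4 of their genotype (Dixon's test, critical value 0.71 for 5 samples), and 2 of 60 groups tested held one. Chance alone marks about 1 group in 20. Mrpl50 had 14.61 TPM in WT mouse 5, against 9.70 to 10.99 TPM in the other 4 WT mice, while S452A mice ran from 8.73 to 16.10 TPM. The ratio of the median Mrpl level to the median Mrps level was 1.33 in S452A mouse 1, against 1.13 to 1.17 in the other 4 S452A mice, whereas its ratio of mean levels, 1.14, was the lowest of the 5.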

How the results depend on the processing

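In all 11 other settings and with each of the 10 libraries left out, 0 of the 78 genes passed (Mrpl23 was not tested where 1 TPM was asked in all 10 libraries). Over all genes, 1 passed (Gm36079, a predicted gene, named after its value was seen), also with any library left out, but 0 under that filter, where that gene is not tested either. No paired analysis was supported, since libraries with the same mouse number deviated together with r of -0.15 to 0.07; with the replicate block 0 genes of the 78 and 1 of all passed, and the smallest adjusted p in limma among the 78 was 0.985. With libraries left out, the median difference ran from -0.13 to -0.04, the large to small ratio from 1.16 to 1.19 and the median correlation from 0.20 to 0.27; the ratio of mean levels without Mrpl52 was 1.03. Of 27 named genes, 17 kept their sign throughout. Summing copies turned Mrps18b to 0.0433, Mrps36 to -0.179 and Mrpl23 to 0.00, and rescaling by the median log ratio turned Mrpl33 to 0.0067. Leaving out a library turned the sign of 9: Mrpl33 (-0.0925 to 0.0667), Mrps18c (-0.11 to 0.0077), Mrpl18 (-0.19 to 0.0409), Mrpl12 (-0.16 to 0.0388), Mrpl13 (-0.18 to 0.0317), Mrps18b (-0.15 to 0.0841), Mrpl10 (-0.12 to 0.0147), Mrps36 (-0.0544 to 0.27) and Mrpl50 (-0.0002 to 0.20). Apart from copies, the cause was not tested. TPM gives no depth, so the limit set by counting is unknown.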
